A study of Mus musculus with 23 samples.

Results

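The 10 genes described here, Aif1, Cx3cr1, Csf1r, Trem2, Tyrobp, C1qa, C1qb, C1qc, Itgam and P2ry12, are in common use as markers of microglia, and they were followed through 3 brain regions of female C57BL/6 mice on 2 diets. A gene was a member if the array annotation gave a probe its symbol, and a row was a transcript identifier, over which the log2 signals of its probes were averaged. The 10 genes had 11 rows and 15 probes among 31395 rows and 43904 probes that passed the filter on low signal, and all 15 of their probes passed it. Itgam had a pair of rows, NM_001082960 and NM_008401, and the other 9 genes had 1 row each.

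SC mice were fed standard chow alone, and CM mice chose freely between standard chow and a chocolate-based mixture, for 8 weeks, before a test battery of 11 days that all mice went through. In part of that battery the free choice was suspended, and SC mice were also given the mixture for limited periods. The initial diets were restored before the mice were killed. The mice were aged 5 weeks when the experiment began, which was before the diets were given. RNA from 4 mice per diet, taken from the hypothalamus (HT), the striatum (ST) and the frontal cortex (FC), was hybridized to 1-colour Agilent arrays, which gave 4 arrays in each group and 3 in CM FC, because the FC array of CM mouse 52 was not used here. The 3 regions came from the same 8 mice, and a number shared by an SC and a CM mouse, such as 58, names different mice. Per the labels the tissue of the third region is thalamic, whereas the treatment text and the study's methods name hypothalamus, and the name HT is kept.

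Between 36432 and 42261 of 59305 spots stood well above background on an array, and no spot of the 10 genes was saturated. A list of 4 cortical genes was lower in ST and HT than in FC for all 4, and a list of striatal genes was higher in ST than in FC for all 6. In HT, 5 of 7 rows of hypothalamic genes and all 6 rows of thalamic genes were higher than in FC. Single ST arrays varied. The mean level of the hypothalamic genes ran from 6.46 to 11.33 in SC ST and from 9.32 to 13.30 in SC HT. That of the cortical genes ran from 7.99 to 10.55 in SC ST and from 6.64 to 9.56 in CM ST. The part of tissue from other regions in the results was not tested. The arrays lay on 3 slides that did not hold the groups evenly. All 4 CM ST arrays were on slide 1 with 1 SC ST array, all 4 CM HT arrays were on slide 2 with 1 SC HT array, and the 3 CM FC arrays were on slide 3, which held no SC FC array.

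Microglia are the resident macrophages of brain tissue. They depend on signaling through the receptor CSF1R, whose ligands CSF1 and IL34 come largely from other cells of the brain, and they sense neuronal fractalkine (CX3CL1) through CX3CR1 and released nucleotides through P2RY12. TREM2 binds lipids and apolipoproteins and signals through the adaptor TYROBP (DAP12), which also serves other receptors. C1QA, C1QB and C1QC are the chains of C1q, the recognition subunit of the classical complement pathway, which microglia supply in the brain. ITGAM (CD11b) pairs with ITGB2 to form complement receptor 3, and AIF1 (IBA1) is an actin-binding protein used to stain these cells.

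The probes that carry the results below are shown first, because a transcript row stands or falls with the oligonucleotide that measured it. Each probe has 60 bases, is written 5′ to 3′ as the scanner files give it and is placed on mm9. The C1qa probe (chr4:136452409-136452468, minus strand), the C1qb probe (chr4:136436578-136436637, minus strand) and the Tyrobp probe (chr7:31200651-31202378, plus strand) measured 3 of the 4 genes called in the comparison of the diet differences of FC and ST, calls that were lost without single arrays. The Tyrobp probe spans more of the genome than its own length because its exonic sequence is split by splicing. The 3 C1q probes lie within 15891 bases of each other, with that of C1qc (chr4:136445766-136445825, minus strand) between the others.
C1qa probe: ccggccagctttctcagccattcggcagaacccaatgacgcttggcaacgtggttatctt
C1qb probe: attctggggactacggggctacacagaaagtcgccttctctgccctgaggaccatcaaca
Tyrobp probe: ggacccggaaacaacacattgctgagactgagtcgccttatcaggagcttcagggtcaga

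Itgam was measured by 3 probes that did not follow each other, so they are shown for comparison. The probe of row NM_008401 (chr7:135212140-135212199, plus strand) was dim. Row NM_001082960 was the mean of a probe of low signal (chr7:135260275-135260334) and of a very bright one (chr7:135261755-135261814), of which only the leading 30 bases are printed. That bright probe starts with a CA repeat of 20 bases, given in capitals.
Itgam NM_008401 probe: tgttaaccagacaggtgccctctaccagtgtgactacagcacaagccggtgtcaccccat
Itgam NM_001082960 probe, low signal: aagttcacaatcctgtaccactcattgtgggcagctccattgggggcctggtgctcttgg
Itgam NM_001082960 probe, bright, 30 bases: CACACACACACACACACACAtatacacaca

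Promoters, meaning the 250 bases before the start of a gene in RefSeq on GRCm38.p6, were found for 7 of the 10 genes, and they are described because the genes moved together between regions. The letters GGAAGT, the core bound by ETS factors such as PU.1 of myeloid cells, occurred on either strand in 3 of the 7 promoters and in 19.7% of 32851 promoters of all genes. The longer GAGGAAGT, which contains GGAAGT, occurred in 1 of the 7 and in 2.44% of all. The 3 promoters that hold GGAAGT are shown with it, or its reverse complement ACTTCC, in capitals. Its first base lies 53 bases before the start in C1qb, 195 bases in C1qc, where the longer form occurs, and 51 bases in P2ry12. A match describes these letters only.
C1qb, chr4:136886201-136886450, minus strand: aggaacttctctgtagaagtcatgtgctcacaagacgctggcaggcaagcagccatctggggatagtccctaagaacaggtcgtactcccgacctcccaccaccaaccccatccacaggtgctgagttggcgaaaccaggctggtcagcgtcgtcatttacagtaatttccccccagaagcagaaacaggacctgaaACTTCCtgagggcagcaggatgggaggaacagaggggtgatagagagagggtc
C1qc, chr4:136892915-136893164, minus strand: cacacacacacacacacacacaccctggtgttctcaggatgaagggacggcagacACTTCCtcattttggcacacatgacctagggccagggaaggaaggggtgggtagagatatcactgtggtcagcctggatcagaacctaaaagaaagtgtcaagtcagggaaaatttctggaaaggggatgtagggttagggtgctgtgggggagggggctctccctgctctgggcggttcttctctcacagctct
P2ry12, chr3:59262986-59263235, minus strand: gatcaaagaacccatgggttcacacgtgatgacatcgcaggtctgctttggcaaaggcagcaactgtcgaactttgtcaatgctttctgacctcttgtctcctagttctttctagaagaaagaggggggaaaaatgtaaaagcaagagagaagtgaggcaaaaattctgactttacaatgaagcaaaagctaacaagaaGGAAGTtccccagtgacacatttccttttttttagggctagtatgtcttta

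To ask how the genes were distributed over the brain areas, the regions were compared across both diets in a linear model with the mouse as a block (limma, adjusted p after Benjamini-Hochberg over all 31395 rows, a row being called at an adjusted p under 0.05). The mean level was lowest in HT for 10 of the 11 rows. In the HT-ST contrast, 10 of 11 rows were lower in HT and none was higher, where 23.3% of all rows were lower and 28.2% were higher. The median of the 11 log2 differences was -0.56, and that of all rows was 0.04. The 8 HT arrays did not overlap with the 8 ST arrays for 8 of the 11 rows, all lower in HT, whereas 8.94% of all rows were of that kind. Among these 8, the rows of Csf1r and Itgam NM_001082960 average several probes, of which single ones did overlap. In bulk tissue, fewer cells of a type and less RNA per cell cannot be told apart.

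Cx3cr1, the fractalkine receptor, ranged from 10.67 to 11.01 in HT (median 10.83, n = 8), from 11.22 to 11.46 in FC (median 11.29, n = 7) and from 11.34 to 11.77 in ST (median 11.52, n = 8), all as log2 signal. Every HT array was below every FC and ST array, while FC and ST overlapped. The level was 1.61-fold lower in HT than in ST (log2 difference -0.69, SE 0.06, adjusted p = 4.68e-09 by limma) and 1.39-fold lower in HT than in FC (-0.48, SE 0.05, adjusted p = 2.52e-07).

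Trem2, the lipid receptor, had the largest HT-ST difference of the 11 rows. It ranged from 10.93 to 11.49 in HT (median 11.06), from 11.44 to 11.87 in FC (median 11.52) and from 11.61 to 12.11 in ST (median 11.93). HT and ST did not overlap, and the highest HT array, that of SC mouse 52, reached into the FC range. The level was 1.69-fold lower in HT than in ST (log2 difference -0.76, SE 0.09, adjusted p = 4.58e-07) and 1.37-fold lower in HT than in FC (-0.46, SE 0.08, adjusted p = 7.93e-05). Its adaptor Tyrobp ranged from 11.39 to 11.80 in HT, from 11.77 to 12.35 in FC and from 11.88 to 12.42 in ST. Tyrobp fell by 0.56 (SE 0.07, adjusted p = 2.12e-06) from ST to HT and fell by 0.31 (SE 0.07, adjusted p = 0.000597) from FC to HT, on the log2 scale.

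Aif1 ranged from 10.77 to 11.216 in HT (median 10.91), from 11.217 to 11.65 in FC (median 11.42) and from 11.31 to 11.74 in ST (median 11.54). HT lay below both other regions on every array with a log2 difference of -0.61 (SE 0.08, adjusted p = 1.11e-06) from ST and -0.49 (SE 0.07, adjusted p = 6.37e-06) from FC. P2ry12, the nucleotide receptor, ranged from 8.55 to 9.08 in HT, from 9.04 to 9.64 in FC and from 8.94 to 9.63 in ST, so that the regions overlapped at their edges. Its differences were -0.62 (SE 0.08, adjusted p = 2.61e-06) from ST and -0.46 (SE 0.08, adjusted p = 3.37e-05) from FC. Csf1r, the growth factor receptor, had row differences of -0.40 (SE 0.05, adjusted p = 2.15e-06) and -0.23 (SE 0.05, adjusted p = 0.000433). That row is a mean over 3 probes, of which 1 did not show the step, as given with the probes.

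The 3 chains of C1q moved by nearly the same amount. The HT-ST log2 difference was -0.53 for C1qa (SE 0.08, adjusted p = 1.31e-05), -0.56 for C1qb (SE 0.09, adjusted p = 2.11e-05) and -0.53 for C1qc (SE 0.08, adjusted p = 8.09e-06). The HT arrays of C1qa ranged from 11.18 to 11.41 and the ST arrays from 11.56 to 12.36. Those of C1qc ranged from 11.05 to 11.33 in HT and from 11.48 to 12.49 in ST, and those of C1qb, from 10.45 to 10.86 in HT and 10.85 to 11.58 in ST, touched.

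Both rows of Itgam stood apart from the others. Row NM_001082960 was lower in HT than in ST (log2 difference -0.30, SE 0.05, adjusted p = 3.96e-05), with HT between 11.64 and 11.92 and ST between 12.01 and 12.23. On each of its probes alone, HT and ST overlapped. The low probe gave -0.35 (SE 0.10, adjusted p = 0.005) and the bright one -0.25 (SE 0.07, adjusted p = 0.0053), both called. The HT-FC difference of the row, -0.11 (SE 0.05), was not called (adjusted p = 0.0575). The dim row NM_008401 ranged from 5.84 to 6.56 over all arrays, had an HT-ST difference of -0.02 with a 95% interval of -0.24 to 0.19, and was called in no region contrast.

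**Figure D1:**
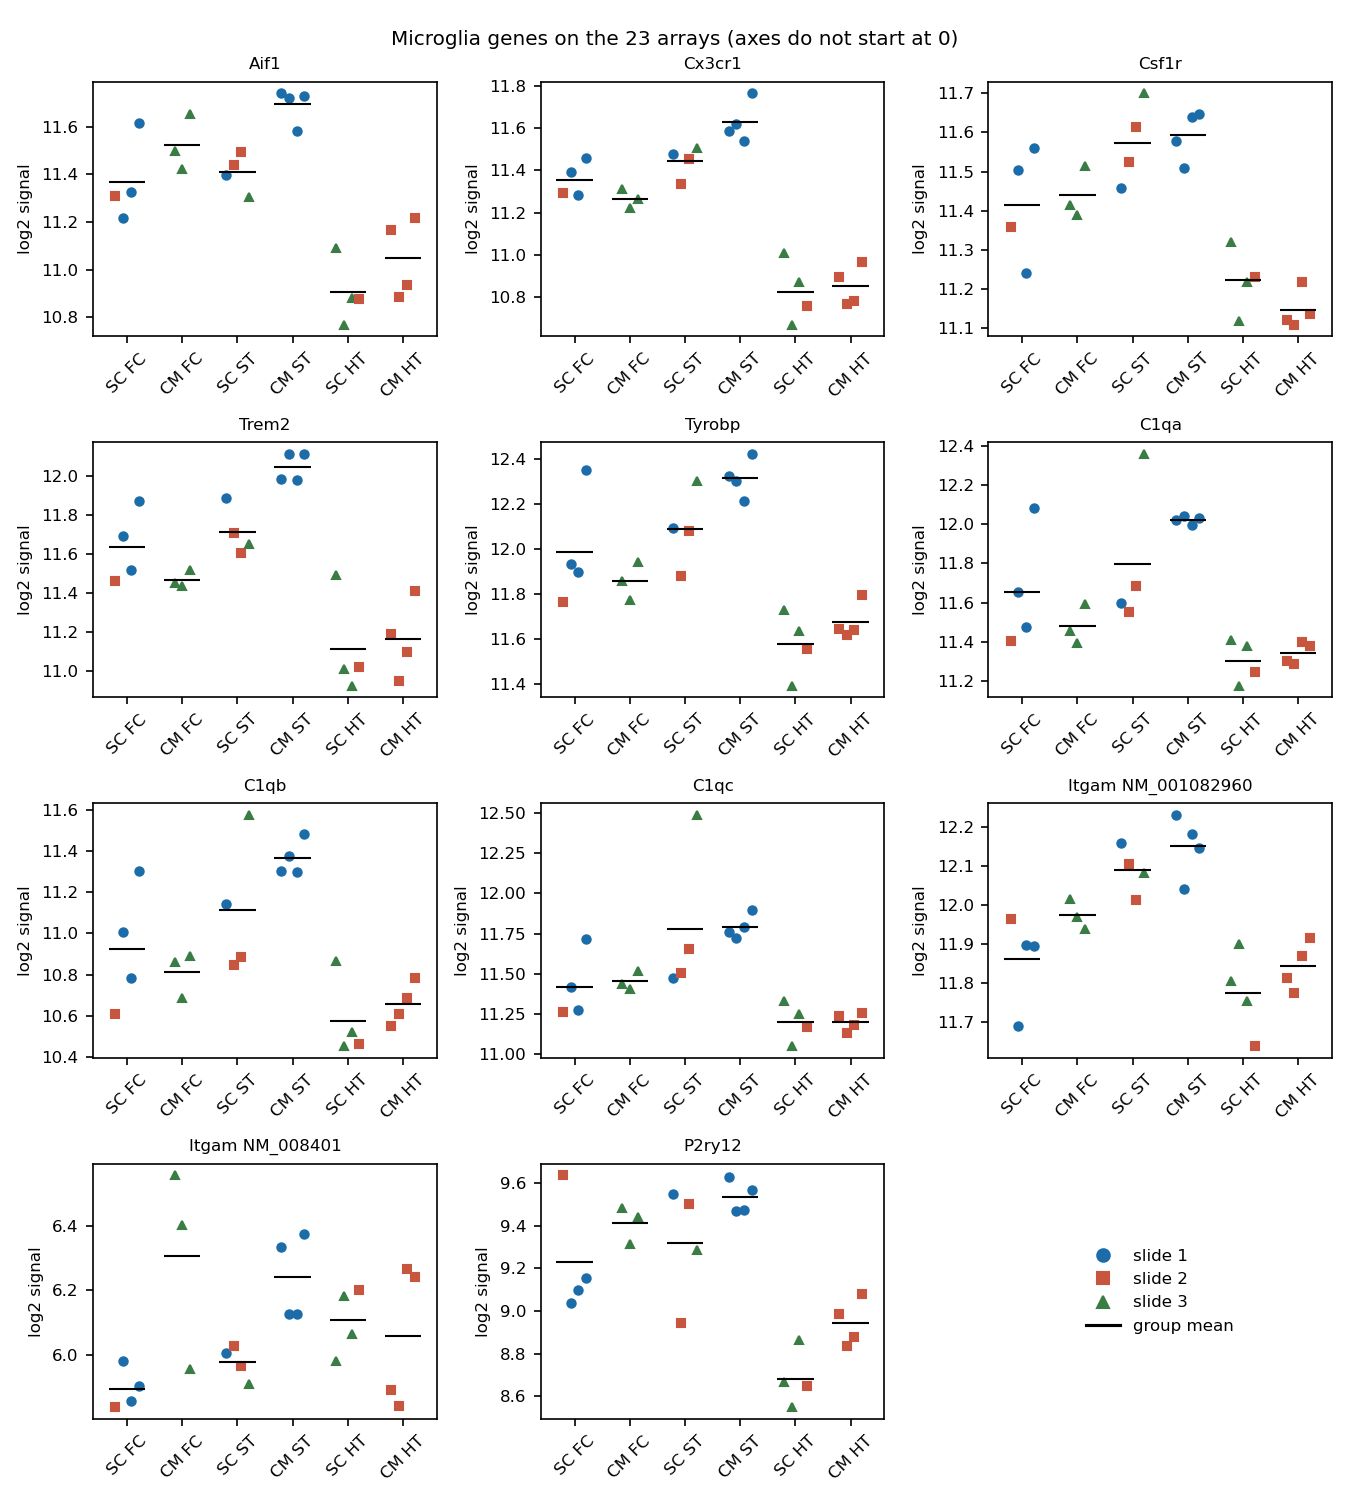
Log2 signal of the 11 rows on each of the 23 arrays, 1 panel per row, by region and diet (SC or CM), with marker shape by slide and a line at the mean of each group. Both HT group means lie lowest in 10 of the 11 panels, and the panel of Itgam NM_008401 shows no such step.

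In the HT-FC contrast, 9 of the 11 rows were lower and none was higher, where 24.6% of all rows were lower and 28.3% higher. The median of the 11 was -0.27, that of all rows 0.03, and the arrays of Aif1 and Cx3cr1, 2 of 11 rows, did not overlap, as was so for 10.9% of all rows with HT lower. In the ST-FC contrast, 8 of 11 rows were higher and none lower, where 17.1% of all rows were higher and 16.8% lower. The ST-FC median was 0.21 (all rows -0.01), and the arrays of ST and FC overlapped for all 11 rows. The differences were 0.30 for Trem2 (SE 0.09, adjusted p = 0.0185), 0.29 for C1qc (SE 0.08, adjusted p = 0.00927), 0.24 for Tyrobp (SE 0.08, adjusted p = 0.019) and 0.21 for Cx3cr1 (SE 0.06, adjusted p = 0.0117). Aif1 (0.12, adjusted p = 0.274), P2ry12 (0.16, adjusted p = 0.182) and Itgam NM_008401 were the 3 rows not called.

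The order HT, FC, ST was measured with unequal firmness. The ST-FC step differed between the fits of SC and of CM arrays alone and depended on single arrays. With SC arrays alone, none of the 11 rows was called in ST-FC by limma (median 0.076), 5 were lower in HT-FC (median -0.40) and 6 in HT-ST. The shares of all rows called in these fits were 9.39%, 40.4% and 18.2%. The C1q chains and Itgam NM_001082960 were the called rows that were lost in HT-ST. With CM arrays alone the ST-FC median was 0.34, and 59.2% of all rows were called. Each region of the CM mice lay on a slide of its own, so region and slide cannot be told apart in that fit. Whether the step differs by diet is the same contrast as the FC-ST interaction given below. With slide as a block, no member row was called in it. Without the FC array of SC mouse 56 the ST-FC count was 2, and without the ST array of SC mouse 56 it was 5, whereas HT-ST had 10 called rows whichever array was left out.

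Slides held several regions of SC mice, so the differences could be looked at within a slide without a test. On slide 2, the SC HT array was below the mean of 2 SC ST arrays for 10 of 11 rows (median -0.42), and on slide 3 the mean of 3 SC HT arrays was below the SC ST array for 10 of 11 rows (median -0.59). The SC HT array of slide 2 was below the SC FC array of the same slide for 10 of 11 rows (median -0.21). ST was above FC for 10 of 11 rows on slide 1 (median 0.09) and on slide 2 (median 0.20). With slide as a fixed block in the model, 10 rows were called in HT-ST, 6 in HT-FC and 7 in ST-FC, where 27.5%, 45.5% and 23.1% of all rows were called.

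**Figure D2:**
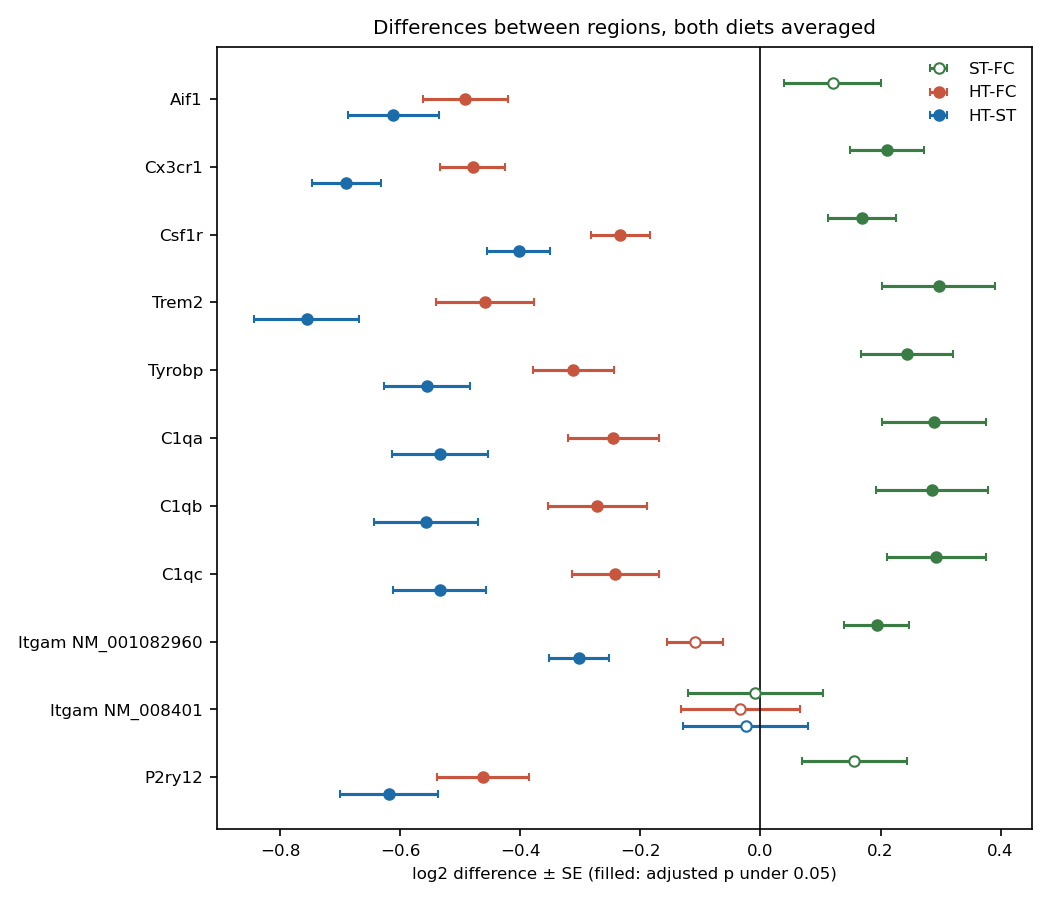
Log2 differences ST-FC, HT-FC and HT-ST with their SE for the 11 rows, filled where called. HT-ST runs from -0.76 for Trem2 to -0.02 for Itgam NM_008401, and ST-FC reaches at most 0.30.

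The genes that belong to the same biology but were not members moved in like manner in part. A list of 26 other genes of microglia had 28 rows, of which 19 were lower and 1 higher in HT-ST (median -0.50), 16 lower and 1 higher in HT-FC (median -0.32), and 8 higher and 3 lower in ST-FC (median 0.16). Irf8, which directs microglial development, had an HT-ST difference of -1.07 (adjusted p = 2.65e-09) and an ST-FC difference of 0.61 (adjusted p = 2.93e-05), and Fcrls, an Fc receptor-like gene of mouse microglia, had an HT-FC difference of -0.80 (adjusted p = 8.69e-08). Lgmn, a lysosomal protease, was the row that was higher in HT, by 0.37 against ST (adjusted p = 3.33e-05) and 0.50 against FC (adjusted p = 2.57e-07). Ly86 rose from FC to ST by 0.56 (adjusted p = 7.27e-05), and the row AK080658 of Siglech, a microglial lectin, fell by 0.83 (adjusted p = 0.00489). The brighter row of Siglech, NM_178706, did not fall with it (0.06, adjusted p = 0.518).

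Ligands and partners of the 10 gene products did not all take one direction. Of 17 rows, 11 were lower and 2 higher in HT-ST, 6 lower and 5 higher in HT-FC, and 4 lower and 6 higher in ST-FC. Il34, a ligand of CSF1R made by neurons, was lower in HT, with -1.34 from ST (SE 0.08, adjusted p = 5.51e-11) and -1.63 from FC (SE 0.08, adjusted p = 1.32e-12), the latter the largest HT-FC difference of the 17 rows. Csf1, the other ligand, was higher in HT in row NM_007778, by 0.31 from ST (SE 0.06, adjusted p = 0.000416) and 0.51 from FC (SE 0.06, adjusted p = 3.7e-07). The dimmer Csf1 row, NM_001113530 (mean level 6.06), was higher in HT than in FC by 0.41 (SE 0.07, adjusted p = 5.23e-05). Against ST it was not called (0.07, SE 0.08, adjusted p = 0.461). The pair of CSF1R ligands thus had opposite signs between HT and FC, and between HT and ST the call for Csf1 rested on row NM_007778.

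Cx3cl1, which encodes the ligand of CX3CR1, had HT differences of -0.92 from ST (SE 0.10, adjusted p = 9.44e-08) and -1.20 from FC (SE 0.09, adjusted p = 6.56e-10), the same sign as its receptor. Hcst, an adaptor like TYROBP, had differences of -0.53 from ST (adjusted p = 6.07e-06) and -1.24 from FC (adjusted p = 1.26e-11), and Syk, the kinase downstream of TYROBP, -0.46 (adjusted p = 0.000376) and -0.56 (adjusted p = 1.91e-05). Itgb2, the partner of ITGAM, had values of -0.17 (adjusted p = 0.0875) and -0.01 (adjusted p = 0.956) that were not called. Nt5e, the ectonucleotidase that makes adenosine, had the largest ST-FC difference of the 17 rows, 1.89 (adjusted p = 2.31e-06), and the largest HT-ST difference, -1.67 (adjusted p = 1.53e-06). Cd200, which restrains microglia, was higher in HT by 1.12 from ST (adjusted p = 3.98e-08).

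Complement genes other than C1q were mixed between regions. Of 13 rows, 3 were higher and 3 lower in HT-ST, 5 higher and 2 lower in HT-FC, and 4 higher and 1 lower in ST-FC. C3, the central component, was higher in HT than in FC by 1.85 (adjusted p = 5.56e-10) and than in ST by 0.94 (adjusted p = 1.67e-05), and C2 was higher in HT than in ST by 1.46 (adjusted p = 7.28e-05). C1ra, a protease that joins C1q in the C1 complex, had HT differences of -1.19 from ST (adjusted p = 0.000117) and -2.02 from FC (adjusted p = 5.11e-08). Genes of microglial activation had 27 rows, with 7 higher and 4 lower in HT-ST, 9 higher and 3 lower in HT-FC, and 5 higher and 2 lower in ST-FC. Lpl, a lipase that activated microglia but also neurons express, had the largest HT-ST difference of them at -3.56 (adjusted p = 1.58e-12).

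Markers of other cell types were read beside these results. Perivascular macrophages, which share several of the 10 genes, had 6 rows, of which 4 were lower and none higher in ST-FC (median -0.58) and in HT-FC (median -0.48), while none was called in HT-ST (median 0.03). Their markers Pf4 and Mrc1 were lower in ST than in FC where 8 of the 11 member rows were higher. Oligodendrocyte genes were higher in ST-FC for 7 of 8 rows (median 1.22) and lower in HT-ST for 3 of 8 (median -0.11). Neuronal genes had 3 of 6 rows lower and 2 higher in HT-ST, astrocyte genes 2 of 8 lower and 2 higher, and endothelial genes 1 of 6 lower and 1 higher. In HT-FC, 4 neuronal rows were lower and 2 higher (median -0.57), 3 astrocyte rows lower and 4 higher (median 0.36), and 1 endothelial row lower. In ST-FC, 4 of 6 neuronal rows (median -0.24) and 3 of 8 astrocyte rows (median -0.089) were lower, and no endothelial row was called. Of 4 choroid plexus rows, 1, the thyroxine carrier Ttr, was higher in ST-FC (3.81, adjusted p = 0.0284, list median 1.20), and none was called in HT-FC or HT-ST. Blood leukocyte genes had 4 of 7 rows higher in HT-ST (median 0.35), 1 lower in HT-FC and 1 lower in ST-FC. The part of other cells in the region differences was not tested.

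**Figure D3:**
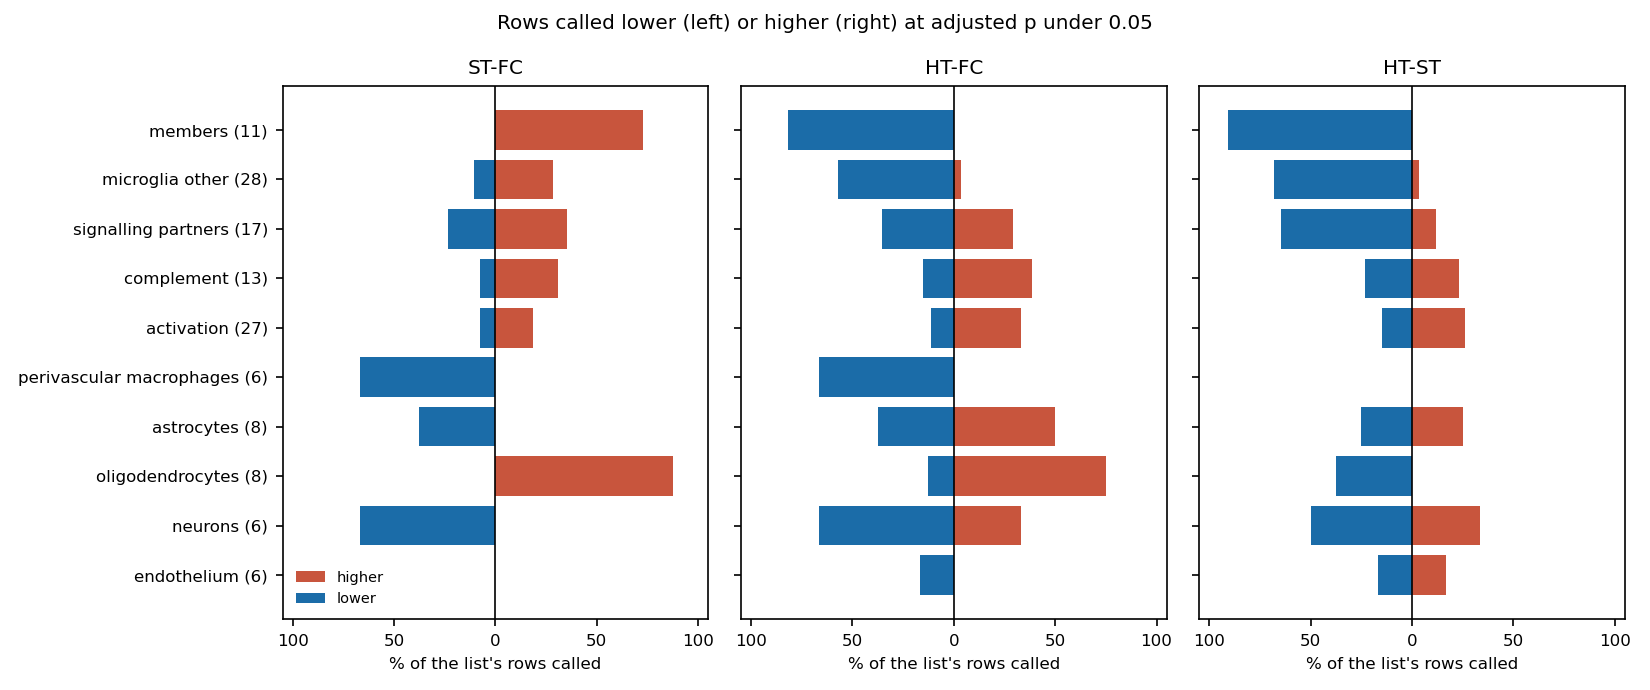
Percent of the rows of 10 gene lists called lower or higher in ST-FC, HT-FC and HT-ST. In HT-ST, 10 of 11 member rows and 19 of 28 rows of other microglia genes are lower, and perivascular macrophage rows are called in neither direction.

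To determine whether the diet changed the genes, CM and SC were compared within each region. No member row passed the thresholds of the study, which asked for a 2-fold change at an adjusted p of 0.01 in FC and ST and a 1.5-fold change at 0.05 in HT, and which 2.94%, 0.602% and 0.178% of all rows passed in FC, ST and HT. The largest differences between the diets were 1.35-fold in FC, 1.29-fold in ST and 1.15-fold in HT.

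In ST, no member row was called by limma at an adjusted p under 0.05, where 3.45% of all rows were higher and 6.37% lower in CM. Unadjusted p-values were under 0.05 for 4 of the 11 rows and for 8006 of 31395 rows. All 11 differences were above 0, as were 54.5% of all rows, with a median of 0.24 against 0.03 over all rows. The 4 CM arrays did not overlap with the 4 SC arrays for Aif1, Cx3cr1, Trem2 and Itgam NM_008401, 4 of 11 rows. Of all rows, 4.96% had every CM array above every SC array. On each single probe of Cx3cr1 the diets overlapped. Apart from Itgam NM_008401 (Pearson r of 0.08 with the mean of the other members), the rows varied together over the arrays of all regions. With group means subtracted, P2ry12 (r = 0.03) and Itgam NM_001082960 (r = -0.01) did not follow the other members either. The shared sign of the 11 rows is therefore not 11 separate observations.

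Trem2 in ST read 11.89, 11.71, 11.61 and 11.65 in SC mice 52, 54, 56 and 58, and 11.98, 12.11, 11.98 and 12.11 in the CM mice of those numbers. All CM arrays were higher, and the SC array nearest to them, that of mouse 52, shared their slide. The CM-SC difference was 0.36 (SE 0.14, 1.28-fold, 95% interval 0.08 to 0.65), which was not called (adjusted p = 0.0975). Without SC mouse 54 it was 0.40 and called (adjusted p = 0.0352).

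Cx3cr1 in ST read 11.48, 11.34, 11.45 and 11.51 in SC and 11.59, 11.62, 11.54 and 11.77 in CM, in the same order of mice. The groups did not overlap in this row, a mean over probes, although on each probe alone they did. The difference was 0.18 (SE 0.09, adjusted p = 0.226). Aif1 read 11.40, 11.44, 11.49 and 11.31 in SC and 11.74, 11.72, 11.58 and 11.73 in CM, also without overlap, with a difference of 0.24 (SE 0.12, adjusted p = 0.208). Tyrobp read 12.10, 11.88, 12.08 and 12.30 in SC and 12.33, 12.30, 12.21 and 12.42 in CM, so that SC mouse 58 lay inside the CM range, and differed by 0.25 (SE 0.11, adjusted p = 0.173).

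For C1q the SC arrays of ST were spread widely. C1qa in ST read 11.60, 11.56, 11.68 and 12.36 in SC and 12.02, 12.04, 11.996 and 12.03 in CM. The array of SC mouse 58 was above all CM arrays and the other 3 SC arrays were below them, and the fitted difference was 0.31 (SE 0.13, adjusted p = 0.122). C1qb read 11.14, 10.85, 10.89 and 11.58 in SC and 11.30, 11.37, 11.30 and 11.48 in CM, with a difference of 0.37 (SE 0.14, adjusted p = 0.0922). Without SC mouse 58 both were called, C1qa at 0.38 (adjusted p = 0.0474) and C1qb at 0.43 (adjusted p = 0.0491). C1qb was also called without SC mouse 54 (0.39, adjusted p = 0.037) and with a background offset of 50 (0.36, adjusted p = 0.0492). C1qc read 11.48, 11.51, 11.65 and 12.49 in SC and 11.76, 11.72, 11.79 and 11.89 in CM. Its fitted difference was 0.10 (SE 0.12, adjusted p = 0.634). The plain means in SC and CM were 11.78 and 11.79 for C1qc, 11.80 and 12.02 for C1qa, and 11.11 and 11.37 for C1qb. The fit weights the arrays, with 0.22 for SC mouse 58 and 0.90 to 1.74 for the CM arrays.

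The remaining rows in ST differed by 0.25 for Itgam NM_008401 (adjusted p = 0.362), 0.19 for P2ry12 (adjusted p = 0.374), 0.10 for Itgam NM_001082960 (adjusted p = 0.466) and 0.01 for Csf1r (adjusted p = 0.939). P2ry12 was called without the SC array of mouse 56 (0.48, adjusted p = 0.0233). On slide 1, where 4 CM ST arrays can be set beside the SC ST array of mouse 52, 9 of 11 differences were above 0 (median 0.22), the exceptions being P2ry12 at -0.02 and Itgam NM_001082960 at -0.01. With slide as a fixed block, no row of the 31395 was called in any of the 3 CM-SC contrasts, and in FC, where no slide held both diets, diet and slide cannot be told apart within the region.

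Among the lists, 3 of 28 rows of other microglia genes rose in CM ST and none fell (median 0.06). They were Adgre1 (an adhesion receptor of macrophages, 0.51, adjusted p = 0.0212), Ptprc (the leukocyte phosphatase CD45, 0.75, adjusted p = 0.0384) and Ly86 (0.45, adjusted p = 0.0358), the last chosen after its value was seen. In the activation list Itgax rose by 0.64 (adjusted p = 0.039) and Nos2 fell by 0.95 (adjusted p = 0.00398), and no row was called among the 17 of ligands and partners, the 13 of complement and the 6 of perivascular macrophages. The mean log2 levels of Ptprc (6.04) and Itgax (5.22) were low. Of the blood leukocyte list, 1 of 7 rows, Cd79a, fell by 0.80 (adjusted p = 0.00824). Choroid plexus genes had a median difference of 1.501 over 4 rows in ST with none called, and their mean level ranged from 7.41 to 8.94 in SC and from 8.17 to 13.59 in CM. Red blood cell genes had a median of 0.59 over 3 rows with none called. Of 6 neuronal rows, 1, that of the synaptic vesicle fusion gene Snap25, fell by 0.49 (adjusted p = 0.00895), and the list ran from -0.49 to 0.22 with a median of -0.24. The part of these tissues in the ST differences was not tested.

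**Figure D4:**
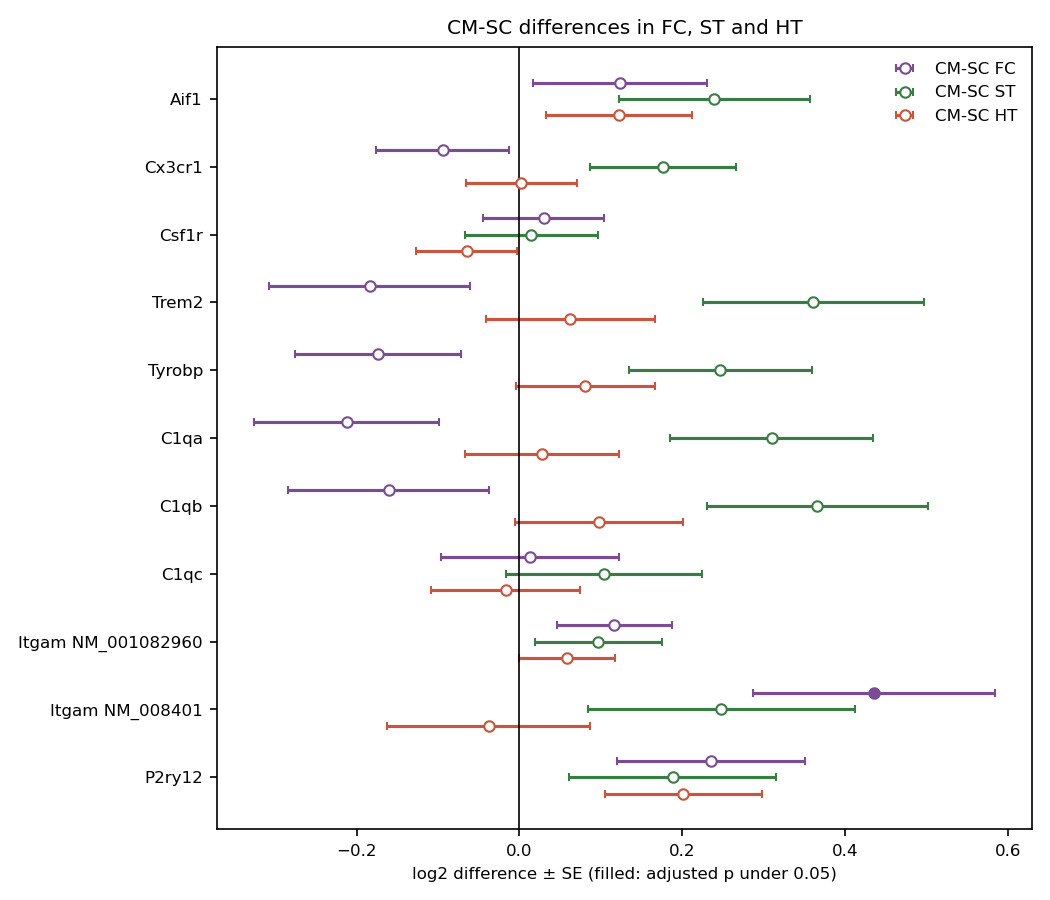
Log2 differences CM-SC with their SE for the 11 rows in FC, ST and HT, filled where called. All 11 values lie above 0 in ST, from 0.01 to 0.37, and the only called value is that of Itgam NM_008401 in FC, 0.44.

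In FC, 1 of 11 rows was higher in CM and none lower, where 15.4% of all rows were higher and 13.2% lower. The called row was the dim Itgam row NM_008401, which read 5.84, 5.98, 5.86 and 5.90 in SC mice 52, 54, 56 and 58 and 6.56, 6.40 and 5.96 in CM mice 54, 56 and 58. CM mouse 58 lay within the SC range. The difference was 0.44 (SE 0.15, 1.35-fold, adjusted p = 0.0338), and it was not called without CM mouse 54 (0.29), CM mouse 56 (0.36), SC mouse 52 (0.42), SC mouse 54 (0.46) or SC mouse 56 (0.41).

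The other 10 rows in FC ran from -0.21 for C1qa (SE 0.11, adjusted p = 0.17) to 0.24 for P2ry12 (SE 0.12, adjusted p = 0.134), with a median over the 11 rows of 0.01 (all rows -0.04). C1qa in FC read 11.41, 11.66, 11.48 and 12.08 in SC and 11.46, 11.40 and 11.59 in CM, the array of SC mouse 58 being highest. Without SC mouse 56, C1qa was at -0.40 and called lower (adjusted p = 0.0249). Trem2 read 11.46, 11.69, 11.52 and 11.87 in SC and 11.45, 11.44 and 11.52 in CM, a difference of -0.18 (SE 0.12, adjusted p = 0.28). Tyrobp read 11.77, 11.94, 11.90 and 12.35 in SC and 11.86, 11.77 and 11.94 in CM, a difference of -0.17 (SE 0.10, adjusted p = 0.214). SC mouse 58 was the highest SC array for all of these, and the median over the 11 rows was 0.11 without it and -0.13 without SC mouse 56.

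P2ry12 in FC had 1 array apart, SC mouse 52, at 9.64 against 9.04, 9.10 and 9.15 in the other SC mice and 9.48, 9.32 and 9.44 in CM. Beside these values, 1 of 28 rows of other microglia genes rose in CM FC, Csf3r by 0.39 (adjusted p = 0.00735), and 1 fell, Laptm5 by 0.57 (adjusted p = 0.00553). Of the ligands and partners 5 of 17 rows fell, namely Nt5e by 0.91 (adjusted p = 0.0274), Tgfb1 by 0.41 (adjusted p = 0.036), Csf1 NM_001113530 by 0.30 (adjusted p = 0.0424) and, chosen after their values were seen, Cd47 and Tgfbr2. In the activation list 6 of 27 rows fell and 2 rose, with Spp1 at -0.99 (adjusted p = 0.0294), Gpnmb at -0.88 (adjusted p = 0.0043), Nos2 at 0.45 (adjusted p = 0.0167) and Ctsb at 0.26 (adjusted p = 0.0335), and of 13 complement rows C4b fell by 0.84 (adjusted p = 0.0324). The mean log2 levels of Csf1 NM_001113530 (6.06) and Gpnmb (6.09) were low.

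Cell types other than microglia also moved in CM FC. Oligodendrocyte genes fell for 5 of 8 rows and rose for 1 (median -0.57), with a mean level of 12.06 to 13.10 in SC and 12.04 to 12.35 in CM. Of 6 striatal genes 1 was called, Drd2 at -1.58 (adjusted p = 0.0258), and the list's median was -1.14, its mean level lying between 9.37 and 11.79 in SC FC and between 9.36 and 11.78 in CM FC. Blood leukocyte genes rose for 3 of 7 rows and fell for none (median 0.35), namely Cd3e of T cells by 0.86 (adjusted p = 0.000476), Cd79a of B cells by 0.61 (adjusted p = 0.00687) and Nkg7 by 0.35 (adjusted p = 0.0167), the last chosen after its value was seen. Astrocyte genes fell for 3 of 8 rows and rose for none (median -0.11), with both rows of Gfap, the intermediate filament gene, at -0.90 (adjusted p = 0.045) and -1.09 (adjusted p = 0.0178). Of 6 endothelial rows 1 rose, Pecam1 by 0.52 (adjusted p = 0.00192). Their part in the FC differences was not tested.

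In HT, none of the 11 rows was called by limma, where 0.124% of all rows were higher and 0.306% lower in CM, and none had an unadjusted p under 0.05 (4154 of 31395 rows did). The median was 0.06 (all rows 0.01). The largest value was that of P2ry12, which read 8.67, 8.55, 8.86 and 8.65 in SC mice 52, 54, 56 and 58 and 8.99, 8.83, 8.88 and 9.08 in CM, with SC mouse 56 inside the CM range and a difference of 0.20 (SE 0.10, 95% interval -2e-04 to 0.40, adjusted p = 0.378). Cx3cr1 differed by 0.0025 (95% interval -0.14 to 0.14) and Trem2 by 0.06 (95% interval -0.15 to 0.28). On slide 2, 9 of 11 differences between 4 CM HT arrays and 1 SC HT array were above 0 (median 0.12). No row of the other microglia genes, of the ligands and partners, of complement or of the activation list was called in HT.

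Whether the CM-SC difference itself changed between regions was tested as an interaction. Between FC and ST this is also the ST-FC step of SC minus that of CM. Between FC and ST, 4 of 11 rows were called, all with a CM-SC difference that was lower in FC, where 30.1% of all rows were called in either direction. The difference of differences was -0.55 for Trem2 (SE 0.19, adjusted p = 0.0335), -0.52 for C1qa (SE 0.17, adjusted p = 0.0271), -0.53 for C1qb (SE 0.19, adjusted p = 0.0387) and -0.42 for Tyrobp (SE 0.15, adjusted p = 0.0458). Each came from a negative value in FC and a positive one in ST that were not called on their own. Cx3cr1 (-0.27, adjusted p = 0.104) and C1qc (-0.09, adjusted p = 0.707) were not called, although C1qc shares its protein complex with C1qa and C1qb. The share of member rows was near that of all rows.

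These 4 calls leaned on few arrays. None of them was called without CM FC mouse 54, CM FC mouse 56 or SC FC mouse 58, 1 was called without SC FC mouse 54 or CM ST mouse 54, and 2 without CM ST mouse 58. None was called with slide as a block or without array weights. Between FC and HT, 0 of 11 rows were called by limma (1 with an unadjusted p under 0.05) where 20% of all rows were. Between ST and HT, 0 of 11 rows were called (0 with an unadjusted p under 0.05), as were 0% of all rows, though 4658 had an unadjusted p under 0.05.

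For 3 genes the row was a mean over several probes, and the probes differed. With 1 value per probe, 4 of 15 probes were called in CM-SC FC, where 28.5% of 43904 probes were called, and 2 of 15 in CM-SC ST, where 10.3% were. The pair in ST was that of Itgam NM_001082960, with opposite signs. Its low probe read 7.94, 7.75, 7.29 and 7.55 in SC ST and 8.31, 8.12, 8.13 and 8.07 in CM ST, a difference of 0.66 (SE 0.15, adjusted p = 0.0102). Its bright probe, which starts with the CA repeat, read 16.38, 16.46, 16.74 and 16.61 in SC ST and 16.15, 15.97, 16.23 and 16.22 in CM ST, a difference of -0.46 (SE 0.11, adjusted p = 0.0129). On both probes the diets did not overlap in ST, and their mean, the row NM_001082960, gave 0.10.

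Csf1r had probes at chr18:61278661-61278720, chr18:61289398-61289758 and chr18:61290725-61290784 (mm9, plus strand). The probe nearest the start of the gene, A_55_P2025073, did not follow the other 2. Its HT-FC difference was 0.17 (adjusted p = 0.0699) and its HT-ST difference 0.04 (adjusted p = 0.71), whereas A_52_P602091 gave -0.45 (adjusted p = 2.95e-05) and -0.71 (adjusted p = 2.24e-07) and A_55_P2025078 gave -0.41 (adjusted p = 5.35e-06) and -0.53 (adjusted p = 5.43e-07). Between the diets in FC, A_55_P2025073 was higher in CM by 0.43 (adjusted p = 0.00718) and A_52_P602091 was at -0.32 (adjusted p = 0.0385). The mean of A_55_P2025073 was 9.48 on slide 1 and 9.84 and 9.93 on slides 2 and 3, and SC ST mouse 52, on slide 1, read 9.26 against 10.11, 9.998 and 10.28 for SC ST mice 54, 56 and 58 on the other slides. The part of the slide in its diet values was not tested.

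The 2 probes of Cx3cr1 (chr9:119959018-119959077 and chr9:119957811-119957870, mm9, minus strand) had the same sign between regions, with HT-ST differences of -0.80 for A_52_P99810 (adjusted p = 7.03e-09) and -0.59 for A_55_P2007964 (adjusted p = 4.15e-07). In CM-SC FC the former gave -0.28 (adjusted p = 0.034) and the latter 0.10 (adjusted p = 0.473). In CM-SC ST they gave 0.30 (adjusted p = 0.0732) and 0.06 (adjusted p = 0.779), and on each the diets overlapped.

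**Figure D5:**
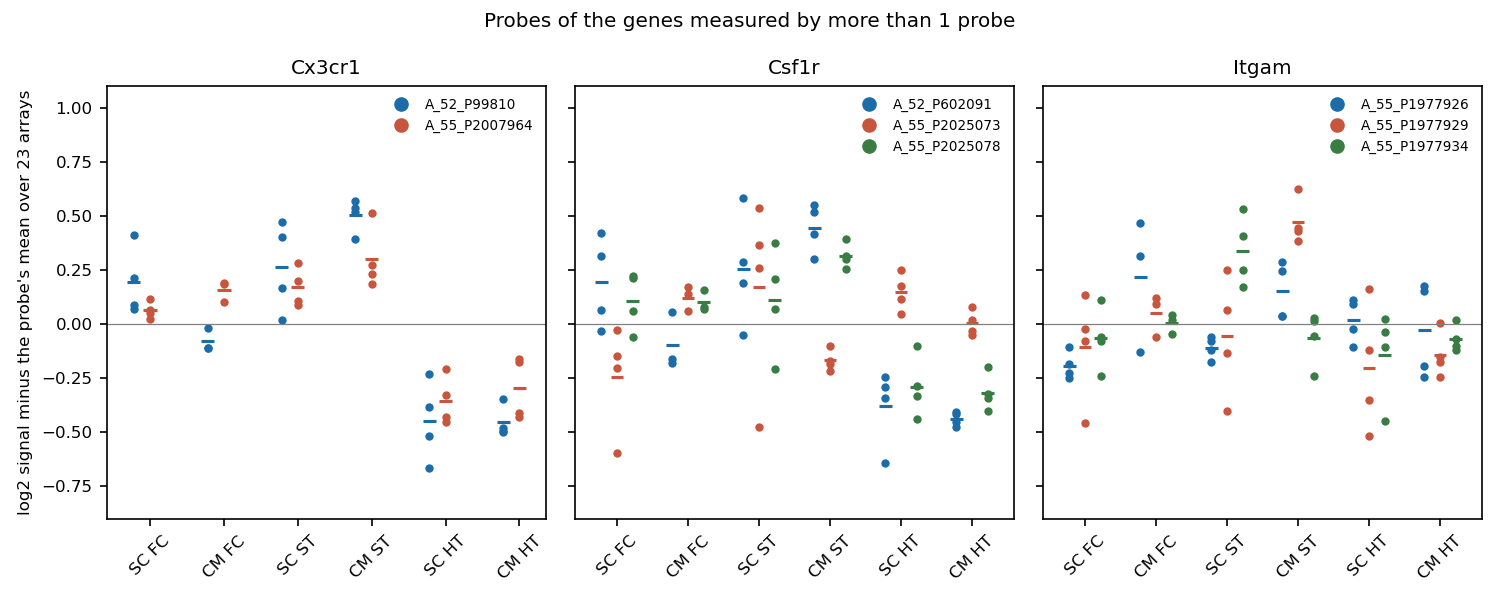
Log2 signal of each probe of Cx3cr1, Csf1r and Itgam minus that probe's mean over the 23 arrays, by group. The low and the bright probe of Itgam NM_001082960 move to opposite sides between SC ST and CM ST, and A_55_P2025073 of Csf1r lacks the low HT level of the other Csf1r probes.

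Over the 23 arrays, 10 of the 11 rows followed the mean of the other members, with Pearson r from 0.76 for Itgam NM_001082960 and P2ry12 to 0.96 for Tyrobp, and Itgam NM_008401 had an r of 0.08. The arrays share regions, mice and slides, so r is a description. With the 6 group means subtracted, r was 0.91 for Tyrobp, 0.84 for C1qb, 0.80 for Cx3cr1 and 0.76 for C1qa, and it was 0.03 for P2ry12 and -0.01 and -0.08 for the Itgam rows. P2ry12 did not vary with the other members within groups, although it had the same step between regions. C1qa and C1qc had an r of 0.94 with each other after that subtraction.

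Of all named genes outside the members, Tmem119, a marker of resident microglia, was most like the mean of the 10 genes (r = 0.96, 23 arrays), followed by Fcer1g (0.95), which encodes an adaptor of Fc receptors, and Ptpn6 (0.94), a phosphatase of hematopoietic cells. Fem1a, Mink1, Samd1, Pik3r5, Nckap1l, Rhobtb2 and Sft2d2 came next, each with an r of 0.94. With the group means subtracted the list was led by Fcer1g (0.92), Tmem119 (0.88) and Apbb1ip (0.88), and S100a16, Pld4, Fadd, Nes, P2ry13 and Eng had r from 0.86 to 0.82. Tmem119 was itself lower in HT, with log2 differences of -0.60 from ST (adjusted p = 5.14e-07) and -0.45 from FC (adjusted p = 6.28e-06). The median r of all rows was -0.06, that of the 28 rows of other microglia genes 0.69, that of perivascular macrophage rows 0.06 and that of the 6 striatal genes 0.80.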

How the data were processed

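Total RNA of frontal cortex, striatum and hypothalamus was labeled with Cy3 and hybridized to 1-colour Agilent arrays, and the intensity of each spot was extracted by the authors with Feature Extraction 10.7.3.1 per the file headers, whose annotation is mm9. The authors deposited these intensities and a table of log2 values that they made with limma (normexp background correction, 1 value per transcript).

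Here the median intensities were background corrected (normexp, offset 0) and quantile normalized with limma 3.58.1, which ran under R 4.3.3. The packages statmod 1.5.0 and data.table (version 1.17.8) were also used. Probes were kept if they were above the negative controls' 95th percentile multiplied by 1.1 on at least 4 arrays, and were averaged per transcript identifier. The 31395 rows differed from the deposited log2 values by at most 5e-09. A mean for each of the groups was fitted with limma, with 1 weight per array (gene-by-gene algorithm) and a random effect of the mouse (within-mouse correlation -0.0398), and p-values were adjusted by Benjamini-Hochberg. Array weights ran from 0.22 (SC ST mouse 58) to 2.74 (CM FC mouse 56), so fitted differences can differ from those of the plain means. Precision is limited by how many arrays a group has. The mice of a group are separate animals.

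The genes and gene lists were chosen with earlier results of these data known. Besides the members and the ligands and partners Csf1, Il34, Cx3cl1, Hcst, Syk and Itgb2, the text names at most 2 called rows per list, direction and contrast, and the 10 genes most like the members' mean. Some genes that this rule selects are not reported here. Of 159 listed genes, 152 had a row, and 18004 rows were matched to RefSeq by accession. The alternatives were another background offset, other signals, scalings, filters, averaging and array weights, slide, mouse or label number as a block, arrays of 1 diet or region alone, and leaving out each array. The values per probe and within slides were added after the data had been seen. The code was tested on simulated data, in which 50 rows per size were changed. In CM-SC ST it recovered 24% of rows changed by a log2 of 0.5 and 70% of those changed by 1. In HT-ST it recovered 58% and 94%. The simulated noise was independent between arrays, without effects of slide or mouse, and far fewer rows were changed than were called here. These shares need not hold for the real arrays. A row that was not called in a diet contrast may thus still differ.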

Additional observations from a re-analysis of the deposited data

Results flagged for a closer look

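Of 55 groups of 4 arrays tested over the 11 rows, 4 had an array far from the other 3, and chance alone flags about 1 in 20 groups. C1qa in SC ST had mouse 58 at 12.36 on the log2 scale, with the other arrays between 11.56 and 11.68. C1qb in SC HT had mouse 52 at 10.86, with the others between 10.45 and 10.52. Tyrobp in CM HT had mouse 58 at 11.80, with the others between 11.62 and 11.64. Aif1 in CM ST had mouse 56 at 11.58, the lowest, with the others between 11.72 and 11.74.

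The CM-SC difference was lower in FC than in ST by the interaction test of limma for Trem2 (-0.55, adjusted p = 0.0335), Tyrobp (-0.42, adjusted p = 0.0458), C1qa (-0.52, adjusted p = 0.0271) and C1qb (-0.53, adjusted p = 0.0387). When each array was left out in turn, the C1qa interaction ranged from -0.71 without SC FC mouse 56 to -0.34 without SC FC mouse 58, where it was not called, and it was -0.59 without SC ST mouse 58.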

How the results depend on the processing

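Over the alternatives, 542 of 582 counts and medians of the member rows stayed within their limits and 40 moved, and no value of a called row reversed. For single rows, 3486 of 3597 values kept their side of the threshold, 93 fell short of it and 18 passed it. In CM-SC FC the count of called rows, 1, was 0 with 1 value per gene name, with arrays of FC alone, with slide as a fixed or random block and at the thresholds of the study, and 4 of 15 with 1 value per probe. In CM-SC ST the count, 0, was 1 with a background offset of 50 (C1qb, adjusted p = 0.0492) and 2 of 15 per probe. The FC-ST interaction count, 4, was 0 with slide as a fixed or random block and without array weights, and 2 without the filter. Per probe it was 8 of 15, without a share of all probes to set beside it. Of the called probes, A_55_P1977934 of Itgam (0.56) and A_55_P2025073 of Csf1r (0.82) had the higher CM-SC difference in FC, and the others the lower. The FC-HT count, 0, was 1 with signals scaled to the 75th percentile (Itgam NM_008401) and 1 of 15 per probe. SC arrays alone gave 5 rows (median -0.40) in HT-FC, 6 in HT-ST and 0 (median 0.076) in ST-FC. With CM arrays alone, where region and slide cannot be told apart, the ST-FC median was 0.34. Leaving out each array gave counts of 0 to 1 in CM-SC FC (median -0.13 to 0.11; without SC FC mouse 56 the 1 called row was C1qa and not Itgam NM_008401), 0 to 2 in CM-SC ST (1 or 2 without SC ST mouse 54, 56 or 58), 2 to 9 in ST-FC, 0 to 4 in the FC-ST interaction and 0 to 1 in the FC-HT interaction (1 without CM FC mouse 58). The HT-ST count was 10 in each of these fits.

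With the label number or mouse as a fixed replicate block, 0 rows were called in CM-SC FC, 0 in ST, 0 in HT, 8 in ST-FC, 10 in HT-FC, 10 in HT-ST and 4 in the FC-ST interaction. SC and CM mice share only a number: the 11 pairs correlated between -0.32 and 0.14, so this is no pairing. Regions of a mouse do pair, though the 22 pairs correlated weakly (-0.49 to 0.13). The all-row medians moved by under 0.1 with 75th-percentile scaling. The adjusted values of the diet contrasts rest on 3 or 4 arrays per group, and all 15 member probes were well above background on all 23 arrays.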
